A study of Mus musculus with 4 samples.

Results

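The histone deacetylase genes Hdac1, Hdac2, Hdac3, Hdac4, Hdac5, Hdac6, Hdac7, Hdac8, Hdac9 and Hdac11 were examined in sorted mouse LSK cells, with 2 arrays of cells labelled as Ezh1 knockout and 2 arrays of control cells. The members are every probe that carries 1 of these symbols, which gave 14 probes for 10 genes, among 55677 probes and 24287 gene symbols on the array. LSK stands for bone marrow cells that lack lineage markers and display Sca-1 and c-Kit, a population in which blood stem cells and multipotent progenitors are found. All mice were of the C57Bl/6J strain. The labels give the knockout only as EZH1, with neither the deleted part nor the genotype of the control mice, and no age. Total RNA amounts of 0.1 to 5 ng were amplified before labelling with Cy3. The amplification cycles ranged from 16 to 19 between samples, and the labels do not name the sample of each number, so the part of unequal amplification in any fold change was not tested. Whether the replicates are separate animals is not stated in the labels. The p-values therefore cover the spread between these 4 samples alone, and that spread may be technical.

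Histone deacetylases take acetyl groups off lysines in histone tails and in other proteins, and at histones this is generally linked to lower transcription. Class I enzymes (Hdac1, Hdac2, Hdac3 and Hdac8) are mostly nuclear, and apart from Hdac8 they work inside corepressor complexes such as NuRD, Sin3, CoREST and NCoR. Class IIa enzymes (Hdac4, Hdac5, Hdac7 and Hdac9) have weak deacetylase activity of their own, bind MEF2 transcription factors and move to the cytoplasm on 14-3-3 proteins after phosphorylation. Hdac6, of class IIb, is a cytoplasmic deacetylase of tubulin, and Hdac11 is the sole class IV member. Ezh1 is a catalytic subunit of polycomb repressive complex 2, whose repressive methylation of histone H3 at lysine 27 falls on a residue that can instead be acetylated.

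Of the 10 deacetylase genes, 5 lay within 0.25 of no difference on the log2 scale, and the 2 that stood farthest apart were Hdac9, which was 2.42-fold higher on the knockout arrays, and Hdac11, which was 1.82-fold lower. Neither passed the test over all probes. Values are given as scaled log2 intensities, that is log2 of the deposited intensity minus the 75th percentile of the same array, so that 0 marks that percentile. Log2 fold changes are knockout minus control with 95% intervals from limma (n = 2 per group). A gene is represented by its brightest probe, and levels of different probes are not set against each other.

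All 14 probes were detected on all 4 arrays, that is above the 20th percentile of the array. This cut is a rank that most probes pass, and 43759 of 55677 exceeded it on both arrays of 1 group or more. Hdac9, at 92.0 on control array 2, lay not far above the 57.6 of that cut. Of the 10 genes, 3 had higher and 7 lower values with the knockout, with Hdac8 counted by its brighter probe although its probes disagree. Of all 19287 measured genes, 52.1% were higher and 47.9% lower. None of the 14 probes had an adjusted p under 0.05 (range 0.780 to 0.9996), and 0% of all probes did. At an unadjusted p under 0.05 the limma fit gave 2 members, Hdac9 higher and Hdac11 lower, against a background of 4.71% of all genes, 3.51% higher and 1.2% lower. Neither stayed under 0.05 with quantile normalization, cyclic loess or centring on the array median. Knockout and control arrays did not overlap for 4 of the 10 genes, with Hdac9 higher (1 gene, against 17.5% of all genes) and Hdac4, Hdac5 and Hdac11 lower (3 genes, against 21%). That share is near the 38.5% of all genes whose arrays did not overlap in either direction. The median size of the log2 fold change was 0.23 over the 10 genes and 0.36 over all measured genes, while the median standard error was 0.32 and 0.34. The share of genes within 0.25 of no difference was 5 of 10 for the members and 36.4% for all measured genes. These values over all genes are not matched for mean signal, with which direction and standard error vary.

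**Figure D1:**
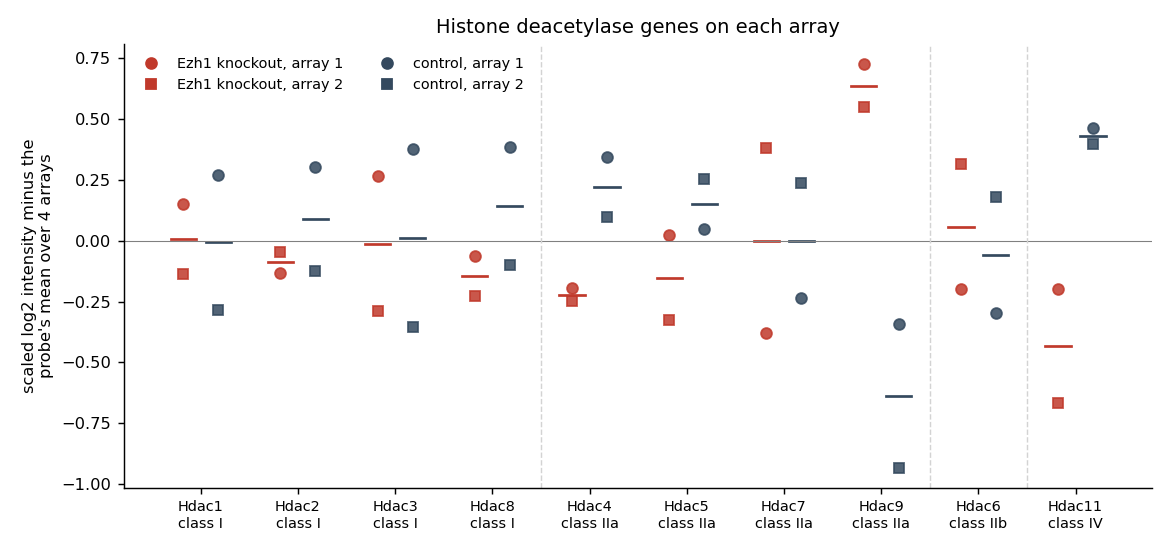
Scaled log2 intensity of the brightest probe of each gene, shown on the vertical axis as the difference from that probe's mean over the 4 arrays. Red symbols are Ezh1 knockout arrays and dark symbols controls, circles are arrays numbered 1 and squares arrays numbered 2, and bars are group means; Hdac9 and Hdac11 show the widest gaps between the groups, 0.89 and 0.60.

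Among class I genes, no brightest probe had groups that did not overlap. Hdac1, the catalytic subunit found with Hdac2 in NuRD, Sin3 and CoREST, had values of 3.00 and 2.71 with the knockout, against 3.12 and 2.56 in control cells. The control arrays thus enclosed the knockout arrays, and the log2 fold change was 0.01 (-0.94 to 0.97). The sign of this probe depends on the scaling, since quantile normalization gave -0.12, cyclic loess -0.05 and centring on the array median -0.21. A dimmer Hdac1 probe (A_55_P2077608) gave -0.08 (-0.79 to 0.64). The third (A_66_P128384) had 0.20 and -0.04 with the knockout, below the 0.42 and 0.27 in control cells, with a log2 fold change of -0.27 (-1.02 to 0.49). The 3 probes thus gave values from -0.27 to 0.01, each with an interval that includes 0.

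Hdac2 had 0.34 and 0.42 with the knockout, against 0.77 and 0.34 in control cells, and its log2 fold change was -0.18 (-1.01 to 0.66). The first control array alone stood above the rest. Hdac3, the enzyme of the NCoR complex, had 0.19 and -0.36 with the knockout, against 0.30 and -0.43 in control cells. For Hdac3 the arrays numbered 1 were high and those numbered 2 low in either group, and the log2 fold change was -0.02 (-1.20 to 1.15). Hdac8, which acts without a large complex, had 0.25 and 0.08 with the knockout, against 0.69 and 0.21 in control cells at its brighter probe (A_52_P464062). Its other probe (A_51_P481191) had 0.14 and 0.13 with the knockout, above the -0.04 and -0.28 in control cells. The 2 Hdac8 probes thus disagree in direction, with log2 fold changes of -0.29 (-1.17 to 0.59) and 0.30 (-0.44 to 1.04), and Hdac8 is given no direction here.

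By the brightest probes, the class IIa genes ran from -0.44 to 1.28 in log2 fold change, against -0.29 to 0.01 for class I. The upper end of class IIa is Hdac9 alone, and without it the range was -0.44 to -0.00066. The other Hdac8 probe, at 0.30, lies outside the class I range. Hdac4 had -1.24 and -1.30 with the knockout, both below the -0.70 and -0.95 in control cells. The gap between the groups was 0.29, wider than the difference within either group, and the log2 fold change was -0.44 (-1.19 to 0.31, limma adjusted p = 0.780). Hdac5 had 0.72 and 0.37 with the knockout, against 0.75 and 0.96 in control cells. Its groups were separated by a gap of 0.03 only, and the log2 fold change was -0.30 (-1.12 to 0.51). Hdac7, known in blood for its role in lymphoid development, had 4.23 and 4.99 with the knockout, against 4.38 and 4.85 in control cells. Replicates of Hdac7 differed 1.69-fold within the knockout group and 1.39-fold within the controls, and with a log2 fold change of -0.00066 (-1.16 to 1.16) differences of 2.23-fold higher and 2.24-fold lower lie at its limits.

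Hdac9, a class IIa enzyme that also has a short form without the catalytic domain, was the member with the largest difference. Its probe (A_55_P1970755) had deposited intensities of 208 and 284 with the knockout, against 144 and 92.0 in control cells. After scaling these were -2.40 and -2.58 with the knockout, both above the -3.47 and -4.06 in control cells. The group means were -2.49 ± 0.12 with the knockout and -3.76 ± 0.42 in control cells (SD, n = 2 each), a log2 fold change of 1.28 (0.33 to 2.22), that is 2.42-fold with an interval from 1.26-fold to 4.66-fold. The unadjusted limma p was 0.0206, rank 966 of 43759 probes, and the adjusted p was 0.780. A further probe (A_55_P2065074) that carries no symbol but whose description names Hdac9 had 102 and 300 with the knockout, against 154 and 148 in control cells. Its arrays overlapped, and its log2 fold change was 0.41 (-0.79 to 1.60), an interval that includes both 0 and 1.28. The groups were thus not apart on every probe described as this gene, and this probe is too imprecise to tell the values of the probes apart. For Hdac4 a probe of that kind (A_55_P2151675) gave 0.05 (-0.99 to 1.10).

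The class IIb gene Hdac6 had 2 probes with a like pattern over the arrays. The brighter (A_55_P1992655) had 2.07 and 2.58 with the knockout, against 1.97 and 2.45 in control cells. The other (A_55_P2009792) had 2.06 and 2.30 with the knockout, against 1.75 and 2.32 in control cells. For either probe the arrays numbered 2 were the higher ones in each group. The log2 fold changes were 0.12 (-0.89 to 1.12) and 0.15 (-0.80 to 1.09), and centring on the array medians turned them to -0.10 and -0.07.

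Hdac11, which removes long fatty acyl groups from lysines more readily than acetyl groups, had deposited intensities of 306 and 341 with the knockout, against 705 and 647 in control cells. After scaling these were -1.84 and -2.31 with the knockout, both below the -1.18 and -1.24 in control cells. The group means were -2.07 ± 0.33 with the knockout and -1.21 ± 0.05 in control cells (SD, n = 2 each), a log2 fold change of -0.86 (-1.72 to -0.01). This is 1.82-fold lower, and the interval runs from just short of no difference to 3.29-fold lower. The unadjusted limma p was 0.0484, rank 2414 of 43759 probes, and the adjusted p was 0.780. In bulk RNA, a different share of cells that express a gene and a different amount of its RNA per cell cannot be told apart. That holds for the higher Hdac9 and the lower Hdac11 alike.

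**Figure D2:**
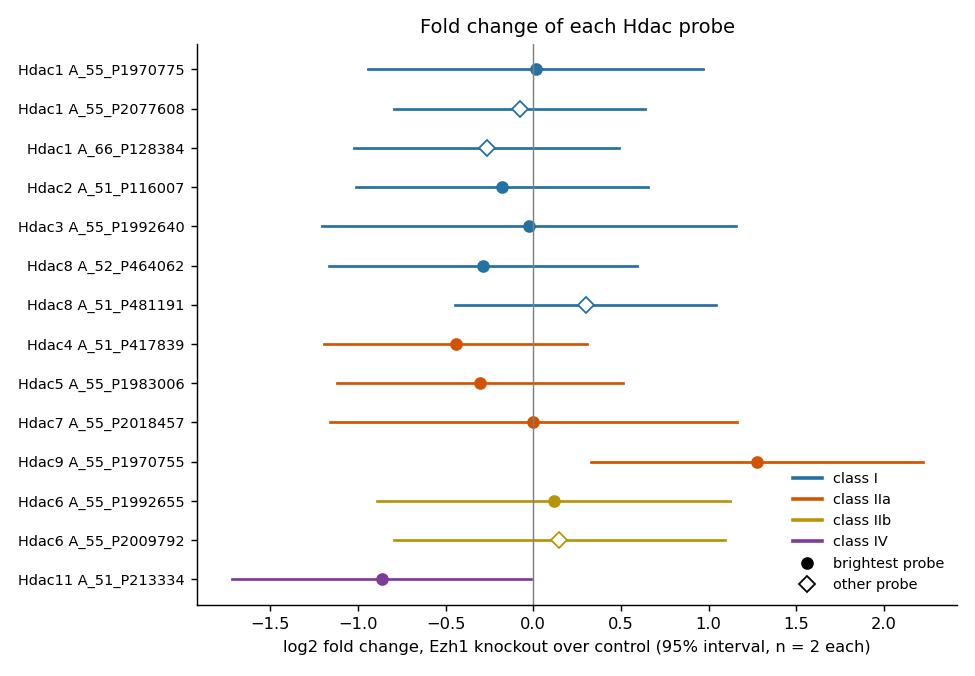
Log2 fold change, Ezh1 knockout over control, of each of the 14 Hdac probes with its 95% interval (n = 2 arrays per group). Filled circles are the brightest probe of each gene and open diamonds its other probes, coloured by class; the intervals of Hdac9 (0.33 to 2.22) and Hdac11 (-1.72 to -0.01) leave out 0, and the other 12 include it.

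The authors' deposited table, which gives a ratio and a p-value per probe, listed none of the 14 probes with a p-value under 0.05, where 3.55% of all probes were listed up and 2.33% down at that level. In the authors' deposited table Hdac9 had a ratio of 2.42 up with p = 0.0534 in a test the file does not name. In the authors' deposited table Hdac11 had a ratio of 1.82 down (p = 0.0677), and Hdac4 a ratio of 1.36 down (p = 0.0742).

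The sequences around the annotated starts of the 2 genes that stood farthest apart are shown because they differ in base composition. Windows from 250 bases before to 50 bases after each start were taken from RefSeq (GRCm38.p6), written 5′ to 3′ on the strand of the gene, with CG dinucleotides in capitals. Hdac9 has windows at 2 annotated starts, chr12:34528840-34529139 (minus strand) and chr12:34917046-34917345 (minus strand). Hdac11 has 1, at chr6:91156565-91156864 (plus strand).
Hdac9 start A: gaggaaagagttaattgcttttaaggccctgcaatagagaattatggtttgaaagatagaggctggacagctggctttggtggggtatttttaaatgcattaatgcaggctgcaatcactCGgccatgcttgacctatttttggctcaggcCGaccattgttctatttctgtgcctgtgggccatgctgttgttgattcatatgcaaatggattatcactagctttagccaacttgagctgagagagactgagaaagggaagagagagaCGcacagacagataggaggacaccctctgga
Hdac9 start B: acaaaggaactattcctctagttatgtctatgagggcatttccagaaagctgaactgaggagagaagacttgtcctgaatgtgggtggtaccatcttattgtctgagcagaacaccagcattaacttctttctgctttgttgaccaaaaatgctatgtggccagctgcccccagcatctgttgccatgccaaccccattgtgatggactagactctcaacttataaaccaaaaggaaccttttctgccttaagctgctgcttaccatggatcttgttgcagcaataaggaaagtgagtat
Hdac11: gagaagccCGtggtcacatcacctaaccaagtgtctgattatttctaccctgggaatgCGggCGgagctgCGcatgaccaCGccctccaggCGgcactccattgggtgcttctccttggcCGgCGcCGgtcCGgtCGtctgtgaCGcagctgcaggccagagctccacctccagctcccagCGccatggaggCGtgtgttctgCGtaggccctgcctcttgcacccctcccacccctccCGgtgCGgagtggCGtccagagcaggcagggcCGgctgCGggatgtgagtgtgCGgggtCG

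The Hdac9 windows held 3 and 0 CG dinucleotides and 45.3% and 44% G or C. The Hdac11 window held 22, with 66.7% G or C. Over all 32851 windows of this length the median was 7 CG dinucleotides and 52.7% G or C, and 31.4% and 5.43% of windows held no more CG than the Hdac9 windows. For Hdac11 that share was 78.5%. Start B of Hdac9 also has the letters TATAAA, 29 bases before the start, which 8.32% of windows hold on the strand of the gene. In all, 8 member genes had 12 windows, with a median of 19 CG dinucleotides. Hdac2 had 36, Hdac4 32, Hdac6 20 and Hdac5 18. Hdac8 had 6, and the Hdac7 windows had 5, 6, 31 and 35, so Hdac9 was not the only member with few. In these windows the consensus of MEF2, the factor that class IIa enzymes bind, was matched once, in Hdac5 (CTATTTTTAG, 20 bases before the start), and 3.19% of all windows hold it. A match is a description of the letters and not a binding site, and the arrays do not show which start was used.

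Class I and class II genes were then compared with each other. The median log2 fold change was -0.10 over the 4 class I genes (range -0.29 to 0.01, 1 higher and 3 lower, by the brightest probes). With the mean over a gene's probes, Hdac8, the lowest of these, was 0.0059 and Hdac1, the highest, was -0.11. It was -0.00066 over the 5 class II genes (range -0.44 to 1.28, 2 higher and 3 lower), and 0.03 over all measured genes. The difference of 0.10 between the class medians has no fixed sign, since it turned to -0.10 after quantile normalization and to -0.08 with cyclic loess, and with 1 array left out it took either sign. It was 0.59 and -0.12 when knockout array 1 or 2 was left out, and -0.40 and 0.62 when control array 1 or 2 was left out. Leaving out either Hdac9 or Hdac6 gave a class II median of -0.15.

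With each gene centred on its own mean over the 4 arrays, the class I genes averaged 0.06 and -0.17 with the knockout, against 0.33 and -0.22 in control cells. The class II genes averaged -0.01 and 0.13 with the knockout, against -0.10 and -0.03 in control cells. Class I was high on the first array of each group and low on the second. Class II minus class I was -0.06 and 0.31 with the knockout, against -0.43 and 0.18 in control cells. Each group thus held a low array numbered 1 and a higher array numbered 2, and the ranges of the groups overlapped.

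**Figure D3:**
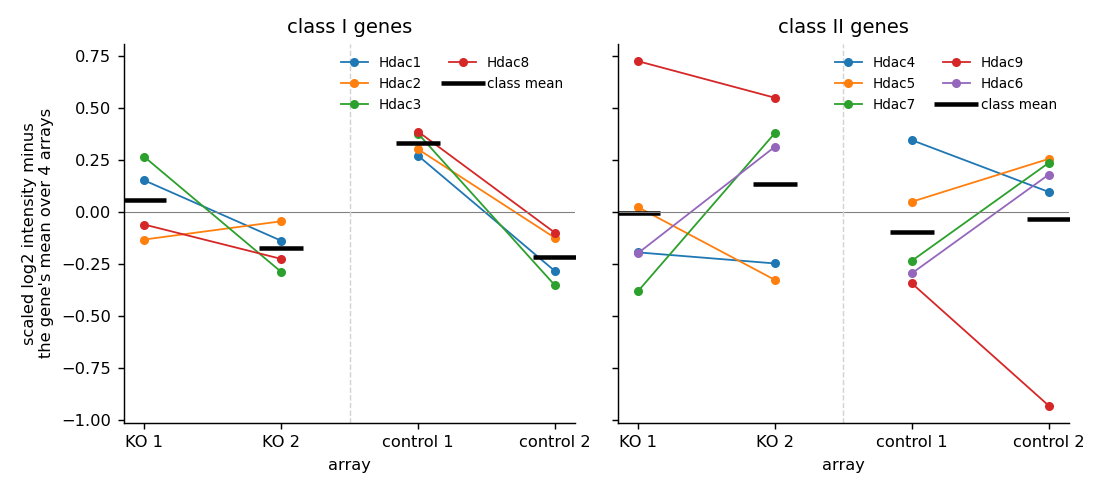
Centred scaled log2 intensity (vertical axis) of the 4 class I genes and the 5 class II genes on each of the 4 arrays (horizontal axis), knockout arrays at the left, with lines joining arrays of a group and black bars for the class mean. Class I means run from -0.22 to 0.33 with the array numbered 1 higher in each group, while class II means stay between -0.10 and 0.13.

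Partners of these enzymes were counted next. Over 11 lists of deacetylase partners, other deacetylases and acetylation factors, 84 of 86 genes had a kept probe, and 24 were higher and 60 lower, and the median log2 fold change was -0.13. The share lower was thus 71.4%, against 47.9% of all measured genes. None had an adjusted p under 0.05, and at an unadjusted p under 0.05 there were 2 lower (Gatad2b and Sap18) and 0 higher by limma. Knockout arrays lay below both controls for 32.1% of the 84 genes and above them for 7.14%. With all genes ordered by mean signal into 10 bins of equal size, numbered from the dimmest, 59 of the 84 lay in bins 5 to 9. Among all genes of those bins 55.1% to 66.9% were lower. The share with both knockout arrays below both controls ranged from 27.4% to 32.0%, the share above them from 12.4% to 15.9%, and the median log2 fold change from -0.17 to -0.07. A further 19 of the 84 lay in bin 10, where 42.1% of all genes were lower, 13.3% were below both controls on both arrays, 27.6% were above, and the median was 0.05. No scaling tried turned the sign of a partner list's median, but leaving out 1 array did for CoREST (0.08) and NuRD (0.02) without Ezh1 knockout replicate 2, and for Sin3 and the 14-3-3 proteins (0.02 for each without control replicate 1).

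In the class I complexes, 3 of 11 NuRD subunits were higher and 8 lower (median -0.11). Gatad2b, a zinc finger subunit, had intensities of 845 and 1097 with the knockout, against 1916 and 1912 in control cells, and its log2 fold change was -0.79 (-1.54 to -0.04). For Mta3 (-0.77) and Gatad2a (0.62) the probes of the gene disagreed in direction. Of 12 measured Sin3 subunits, 3 were higher and 9 lower (median -0.10). Sap18 had 498 and 662 with the knockout, against 1161 and 1197 in control cells, and its log2 fold change was -0.84 (-1.58 to -0.09). Sap30 (-0.37) and Sap130 (-0.36) had both knockout arrays below both controls.

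In CoREST, which joins Hdac1 and Hdac2 to a lysine demethylase, 2 of 7 subunits were higher and 5 lower (median -0.09). That demethylase, Kdm1a, had 1341 and 1820 with the knockout, against 3411 and 2687 in control cells, and its log2 fold change was -0.75 (-1.54 to 0.03). Rcor2 (-0.38) and Hmg20b (-0.19) were lower with groups that did not overlap. The NCoR subunits had a median of -0.10, with 1 of 5 higher, and the log2 fold change was -0.37 for Tbl1x and 0.33 for Gps2. The MiDAC and MIER subunits had a median of -0.18, with 1 of 6 higher, and the named members were Mier1 (-0.51), Mier3 (-0.33) and Trerf1 (0.19). No member of these lists passed the test over all probes.

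Partners of class IIa enzymes did not share one direction. Of 4 MEF2 factors 3 were higher (median 0.26, and 0.037 with centring on the array median), with Mef2b at 0.39 (-0.46 to 1.25), Mef2a at 0.38 with probes that disagree in direction, and Mef2c at -0.21 (-1.18 to 0.75). The 14-3-3 proteins had 2 of 7 higher and a median of -0.08. Among them Ywhab had 2189 and 3157 with the knockout, against 4630 and 4125 in control cells, and its log2 fold change was -0.53 (-1.25 to 0.18), and Ywhag and Ywhaq each had -0.27. Of 10 measured kinases that phosphorylate class IIa enzymes 4 were higher and 6 lower (median -0.16), with Camk4 at -0.59 (-1.72 to 0.54), Camk2g at -0.40 and Camk2d at -0.54 with probes that disagree.

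The other deacetylase family, the NAD-dependent sirtuins, had 1 of 7 members higher and 6 lower (median -0.31). The mitochondrial Sirt3 had 6010 and 7052 with the knockout, against 11203 and 11586 in control cells, and its log2 fold change was -0.61 (-1.43 to 0.21). Sirt6 had -0.38 with groups that did not overlap, and Sirt5 had -0.43 with groups that did. Enzymes that add acetyl groups had 4 of 12 higher and 8 lower (median -0.15), with Kat6a at 0.50 and Kat2a at -0.34, and Ncoa1 at -0.44 with probes that disagree. Among readers of acetylated histones, Brd2 had -0.40 and Brd3 had -0.58, each with groups that did not overlap. The adjusted p was 0.780 or higher for each gene of these 3 lists that is named.

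**Figure D4:**
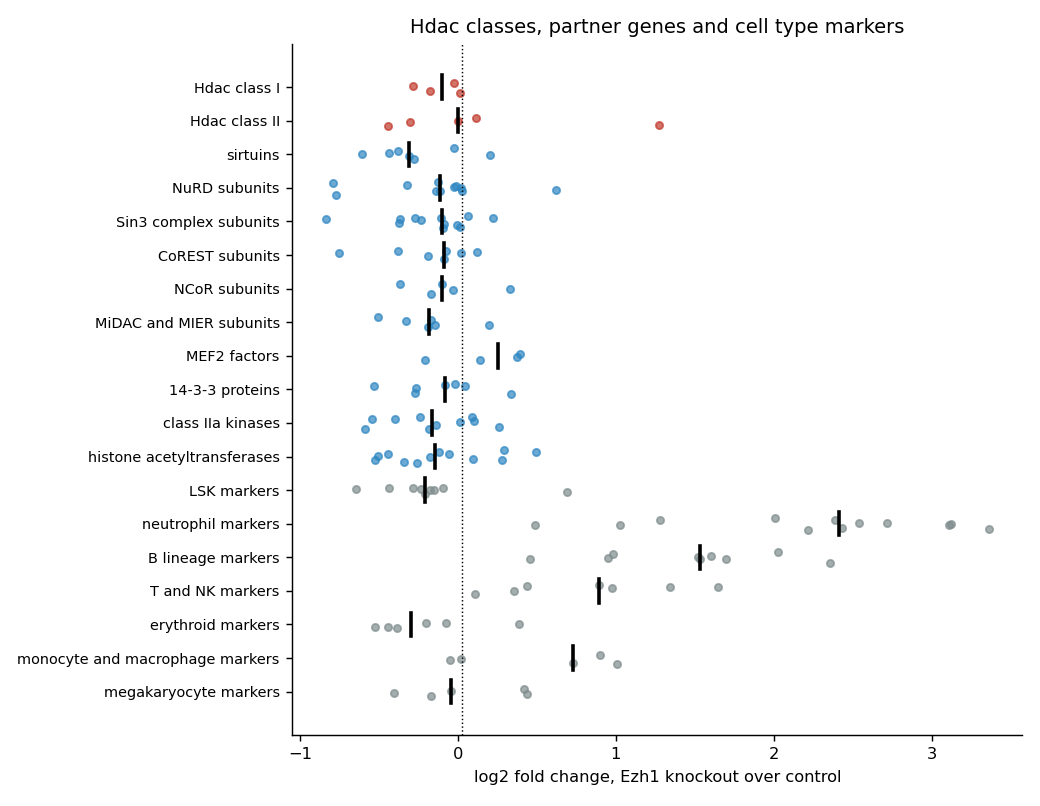
Log2 fold change, Ezh1 knockout over control, of each gene (points) in the 2 Hdac classes, 10 of the 11 lists of partners and acetylation factors, and the 7 lists of cell type markers, with the median of each list as a black bar and the median of all measured genes (0.03) as a dotted line. The list of acetylated-histone readers, with a median of -0.40, is not drawn; the Hdac classes and the partner lists drawn have medians between -0.31 and 0.26, and the neutrophil and B-lineage markers have medians of 2.41 and 1.54.

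Values over the whole arrays also differed between arrays. The 75th percentile of intensity was 1095 and 1690 with the knockout, against 1594 and 1531 in control cells. The 20th percentile was 22.8 and 87.3 with the knockout, against 12.4 and 57.6 in control cells. Scaling by the 75th percentile does not make the dim end alike between arrays. The part of this in the values of dim probes such as that of Hdac9 was not tested. All 9 LSK markers listed, among them Kit and Ly6a, the gene of Sca-1, were detected on all 4 arrays, with 1 higher and 8 lower. All 12 neutrophil markers were higher on the knockout arrays, and their intensities, each divided by the 75th percentile of the array, summed to 118.0 and 104.5 with the knockout, against 44.3 and 48.1 in control cells. All 9 B-lineage markers were higher, summing to 9.28 and 8.02 with the knockout, against 5.37 and 5.11 in control cells. All 7 measured T and NK markers were higher as well (2.97 and 2.26 with the knockout, against 1.31 and 1.28 in control cells). The medians were -0.21 for the LSK, -0.30 for the erythroid, -0.05 for the megakaryocyte, 0.73 for the monocyte and macrophage, and 0.89 for the T and NK markers. Mmp9, Ms4a1 and Cd5 were detected on 3 of the 4 arrays, the other measured markers on all 4, and Cd3g had no kept probe. The LSK sort selects against cells that display lineage markers. The part of these cell types in the Hdac9 and Hdac11 values was not tested. The 4 Ezh1 probes gave log2 fold changes of 0.27, 0.13, -0.09 and -1.15, none past the threshold, and with the deleted part unknown they do not check the labels.

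Mean signal also went with the direction of the difference over all genes. In bin 3 of 10, which holds Hdac9, the median log2 fold change was 0.30, and 66.5% of genes were higher with the knockout. In that bin 9.38% of genes had a difference at least as large as that of Hdac9. In bin 4, which holds Hdac11, the median was 0.14 with 57.5% higher, and 3.58% of genes were at or below the value of Hdac11. At this scaling Hdac9 thus lies in the direction of most genes of like signal and Hdac11 against it. Centring on the array median lowers all fold changes by the same amount, which moved the median of all kept probes from 0.09 to -0.13. The bin 4 median then falls below 0, and Hdac11 no longer lies against its bin. Hdac4 lies in bin 5 and Hdac5 in bin 8, where 28.3% and 30.9% of genes had both knockout arrays below both controls. In those bins 55.1% and 65.8% of genes were lower. Hdac2, Hdac3 and Hdac8 lie in bin 7 and Hdac6 in bin 9, where 66.9% and 64.3% were lower. Hdac1 and Hdac7 lie in bin 10, where 42.1% were lower.

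Of 11 other ways of processing, the changes of filter and the replicate block cannot move a fold change by construction. Under the other 8, the fold changes of Hdac9, Hdac11, Hdac4 and Hdac5 kept their direction. The groups of these genes did not overlap, so leaving out an array could change the size of the difference but not its sign. Centring on the array median lowers all fold changes, so it could not turn the negative values of Hdac11, Hdac4 and Hdac5. For those genes only quantile normalization, cyclic loess and the offset could have turned the sign, and for Hdac9 these and the centring. Over the 8, Hdac9 ranged from 0.98 to 1.57, Hdac11 from -1.10 to -0.63, Hdac4 from -0.66 to -0.32 and Hdac5 from -0.52 to -0.13. These ranges are for probes that carry the symbol. The probe that only its description names as Hdac4 (A_55_P2151675) gave 0.05 (-0.99 to 1.10) at the main setting. The brightest probes of Hdac1, Hdac2, Hdac3, Hdac6 and Hdac7 took either sign. No Hdac probe passed the adjusted threshold under any of them.

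**Figure D5:**
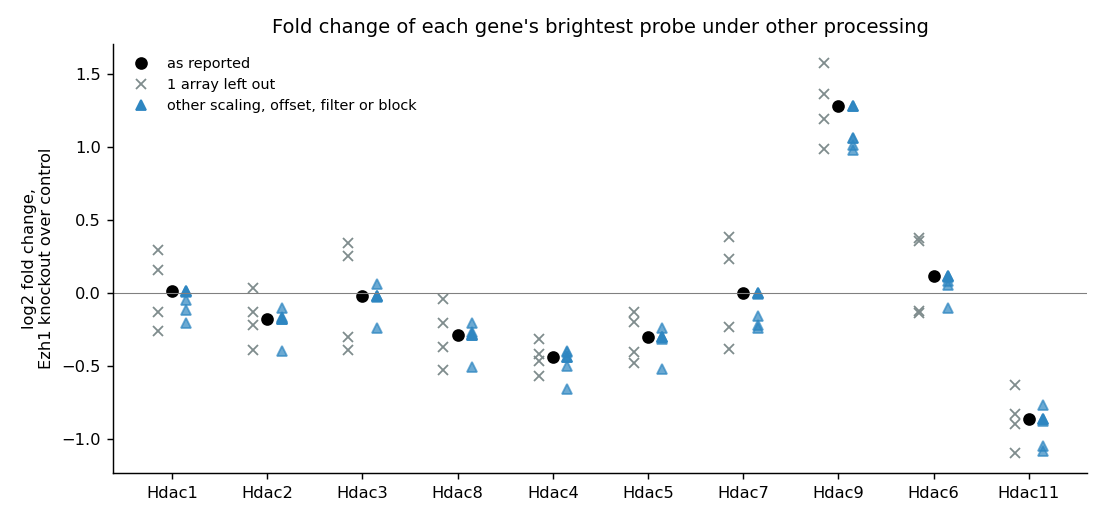
Log2 fold change, Ezh1 knockout over control (vertical axis), of the brightest probe of each gene (horizontal axis) as reported (black circles), with 1 array left out (grey crosses, 4 per gene) and with other scaling, offset, filter or block (blue triangles, 7 per gene). Hdac9 stays between 0.98 and 1.57 and Hdac11 between -1.10 and -0.63, and Hdac7 runs from -0.38 to 0.38.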

How the data were processed

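RNA of sorted LSK cells was measured on 4 Agilent arrays in 1 colour (Cy3), and groups were taken from the sample titles. Linear probe intensity values were deposited by the authors. The submitters' processing notes name Agilent Feature Extraction; the sources used here give no version. A second deposited table lists the authors' fold ratio, direction and p-value for every probe, the test being unnamed in its headers. The log2 value table deposited by the authors for the arrays was not used, because its probe IDs did not go with its values. Integrity numbers of the RNA were 9 to 10 and 250 ng were labelled, per the labels' protocols.

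Intensities under 1 were set to 1, converted to log2 and lowered by each array's 75th percentile. A probe entered the tests if it exceeded the 20th percentile on both arrays of 1 group or more, as 43759 of 55677 did. With no flags or background columns in the table, this stands in for detection. Moderated tests from limma 3.58.1 under R 4.3.3 (lmFit, eBayes) were two-sided and without a block, with Benjamini-Hochberg adjustment over all kept probes and a threshold of 0.05. The number of arrays limits the precision, with 2 residual and 1.78 prior degrees of freedom. Each gene is represented by the brightest of its kept probes.

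All members are named. From each partner list up to 3 genes with the smallest unadjusted p are named, and 2 of these genes are not reported here. The members and lists were chosen with earlier results of these data known, so no list was tested as a set. Alternatives were quantile normalization, cyclic loess, centring on the array median, an offset of 50, no filter, a filter at the 40th percentile, the replicate number as a block, each array left out, and the mean of a gene's probes. The limma fit was tested on simulated data with independent errors, which lack the correlation seen between arrays of the same number. All 14 members' RefSeq accessions matched their current symbols. Promoter windows came from RefSeq tables (GRCm38.p6), which matched 8 of the 10 genes. The MEF2 consensus was searched on both strands and TATAAA on that of the gene.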

Additional observations from a re-analysis of the deposited data

How the results depend on the processing

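The design of 2 arrays a group limits what can be seen, and no probe had an adjusted p under 0.05 in any of the 11 alternatives run across all probes. The limits of the data are the amplification from little RNA, the lack of detection flags and the unstated relation between replicates. The median over all kept probes was 0.09 and moved to -0.08 after quantile normalization and -0.13 with centring on the array median (-0.04 to 0.14 with 1 array left out). The 2 Hdac probes at an unadjusted limma p under 0.05 became 0 with quantile normalization, cyclic loess or centring on the array median, 1 with an offset of 50 or no filter, and 0 to 1 with an array left out. Over all probes that count was 2513, 1278 with centring on the array median, and 888 to 3892 with an array left out. Deviations of same-numbered arrays from their group means correlated at 0.69 over 43759 probes, a hint from the data that the labels do not state. With the replicate number as a block the count was 9158 and the lowest adjusted p of a member was 0.206 (Hdac9), so the block changed no adjusted call. In this balanced design the block cannot move a fold change.

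Quantile normalization gave -0.12 for Hdac1 (A_55_P1970775), and cyclic loess gave -0.052. Cyclic loess gave 0.0079 for Hdac1 (A_55_P2077608) and 0.063 for Hdac3. Centring on the array median gave -0.21 for the first Hdac1 probe, -0.10 for Hdac6 (A_55_P1992655) and -0.069 for Hdac6 (A_55_P2009792). The mean over a gene's probes gave -0.11 for Hdac1 and 0.0059 for Hdac8. With 1 array left out, the values ran from -0.26 to 0.29 for the first Hdac1 probe, -0.39 to 0.036 for Hdac2, -0.39 to 0.34 for Hdac3 and -0.38 to 0.38 for Hdac7. For Hdac6 they ran from -0.14 to 0.37 and from -0.13 to 0.43.

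The class II median became -0.24 with quantile normalization, -0.16 with cyclic loess and -0.22 with centring on the array median. Centring on the array median lowered the list medians to -0.53 for sirtuins, -0.33 for NuRD, -0.32 for Sin3, -0.31 for CoREST, -0.32 for NCoR, -0.40 for MiDAC and MIER, -0.30 for 14-3-3 proteins, -0.37 for histone acetyltransferases and 0.037 for MEF2 factors. Quantile normalization gave -0.26 for NuRD, -0.26 for 14-3-3 proteins and 0.18 for MEF2 factors, and cyclic loess 0.13 for MEF2 factors. With 1 array left out, medians ran from -0.24 to 0.37 for class II, -0.39 to 0.16 for class I, -0.48 to -0.076 for sirtuins, -0.21 to 0.025 for NuRD, -0.33 to 0.017 for Sin3, -0.26 to 0.082 for CoREST, -0.29 to -0.0063 for NCoR, 0.20 to 0.29 for MEF2 factors, -0.26 to 0.016 for 14-3-3 proteins and -0.25 to -0.0030 for histone acetyltransferases. The difference between class II and class I medians ran from -0.40 to 0.62. The causes were not tested. The deposited value table was not run as an alternative, since its probe IDs did not go with its values.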

Other observations

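The log2 value table deposited for these arrays holds values for 16370 of 55677 probe IDs. Its values correlated with the scaled intensities of the same probe ID at 0.091 and 0.079 for the knockout samples and 0.089 and 0.069 for control samples, across probes. Yet 99.98% of its rows lay within 0.02, as a distance over the 4 arrays on the log2 scale, of the scaled values of some probe, against 0.055% with the order of the arrays reversed. For 1097 genes with a pair of probes in it, the mean log2 values of the pair correlated at -0.0048 across genes in the value table and at 0.56 for the same probes in the intensity table. The IDs of that table therefore do not go with its values, and no Hdac value was read from it. How many single rows stand under another probe's ID was not counted.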
